A study of Mus musculus with 12 samples.

Results

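The 9 cytokine genes Tnf, Lta, Ltb, Csf1, Il6, Il10, Il12a, Ebi3 and Tgfb1 were read from a table of mRNA abundance in LPS-activated mouse B cells. They were chosen by gene symbol, as cytokines that B lymphocytes can make, and each symbol matched 1 of the 29486 genes in the table. Primary splenic B cells of C57BL/6Babr mice had been isolated with a B cell isolation kit and cultured in 3 conditions of 4 libraries each. The first received LPS alone (10 μg/ml, 48 h), the second LPS and then etoposide (20 μM, 4 h), and the last LPS with KU55933 (10 μM) from 1 h before etoposide. All cells thus carried LPS, no cells received KU55933 without etoposide, and it is not stated whether cells without etoposide were harvested before or after the final 4 h.

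LPS is a bacterial cell wall component that activates B cells through Toll-like receptor 4 and NF-kB, and cytokine genes are among the targets of this pathway. Etoposide traps topoisomerase II on DNA and leaves double-strand breaks, to which the kinase ATM responds, and KU55933 inhibits ATM. B cells are known for lymphotoxin and TNF, which organise lymphoid tissue, and for cytokines that dampen immune responses, such as interleukin 10 and interleukin 35, the latter a dimer of the products of Il12a and Ebi3. Many cytokine mRNAs are short-lived and carry AU-rich elements in the 3′ untranslated region.

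Each value below is a fitted count per library, scaled for library size. The 4 columns of a condition were multiples of one another for every gene, to within 1.4e-14 on the log2 scale, and differed only by a factor for each library. The table therefore holds 1 value for each gene and condition and no spread between replicates, so that no difference below was tested. Intervals are at the 95% level and cover the counting error of the 4 libraries together, which is a lower limit of the true error. A log2 ratio compares log2(value + 1) of 2 conditions, and differences of at least 2-fold in the ratio are counted beside the share of all 15616 genes that passed a filter on low values (at least 10 in at least 4 libraries) and differed by as much. All 9 cytokine genes passed it, with a level of at least 10 in every condition. Column totals were between 20.7 and 23.9 (LPS), 22.5 and 30.6 (etoposide) and 20.4 and 25.1 (KU55933 with etoposide) in units of 1000000.

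Defining B cell markers were abundant in every condition, with levels of 21511 (LPS), 15979 (etoposide) and 16408 (KU55933 with etoposide) for Cd79a. In the same order, Cd79b had 20759, 13734 and 17440, and Ms4a1 30214, 21030 and 13507. Pax5 (5341, 1146 and 1180) and Cd22 (23231, 4369 and 5115) were lower than with LPS in both etoposide conditions. The 8 macrophage markers summed to 406, 484 and 442, and the macrophage genes Lyz2 and Adgre1 had levels of 33.0 to 51.8 and 39.9 to 47.2. Of the T cell markers, Cd3e, Cd3g, Cd4 and Thy1 stayed under 2 and Trac reached 14.0 with etoposide. The 2 NK cell markers in the table summed to at most 1.90, the 3 neutrophil markers to at most 1.10, and the 4 haemoglobin genes to 202, 140 and 101. The dendritic cell list summed to 2839, 1945 and 3436, mostly Flt3 (2700, 1688 and 2977), which was lower with etoposide alone. Of the same list, Zbtb46 (99.4, 185 and 412) and Xcr1 (39.7, 71.3 and 45.7) were above LPS in both etoposide conditions, and Siglech was at most 0.974. Among the plasma cell markers, Sdc1 had 133, 1996 and 644, Jchain 3780, 5237 and 2735, and Xbp1 7338, 5433 and 5500. In these bulk libraries, fewer cells of a type and less RNA per cell cannot be told apart. Known p53 targets were read as a check of the damage response. Cdkn1a had 397, 13737 and 10914, Mdm2 2531, 17023 and 9622, and Bax 2124, 5775 and 4903. Ccng1 had 5479, 52153 and 30942, and Phlda3 104, 3272 and 3032. All were at least 2-fold above LPS in both etoposide conditions. Of all genes, 15.3% were so with etoposide and 12.3% with KU55933 and etoposide. The Illumina index of a library is particular to its condition, so that index and condition cannot be told apart.

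Upon etoposide treatment, 1 of the 9 cytokine genes was at least 2-fold higher than with LPS alone (Csf1), against 15.3% of all genes, and 3 were at least 2-fold lower (Tnf, Lta and Ltb), against 4.87% of all genes. With quantile normalization these background shares were 11.0% and 8.67%, with the same 4 cytokine genes past 2-fold. The counting intervals of the log2 ratios of Tnf (−1.21 to −0.89) and Lta (−1.29 to −0.88) include the 2-fold limit. The median log2 ratio of the 9 genes was −0.46, beside 0.07 for all genes, and 6 of the 9 lay below 0. With KU55933 before etoposide, 1 gene was at least 2-fold higher than with etoposide alone (Il6, against 1.69% of all genes) and 1 at least 2-fold lower (Csf1, against 4.73%). Quantile normalization gave 2.41% and 3.70% there. Here the median was 0.20 for the cytokine genes and −0.05 for all genes. Compared with LPS alone, KU55933 with etoposide left 1 gene at least 2-fold higher (Csf1, against 12.3%) and 2 at least 2-fold lower (Tnf and Ltb, against 5.03%), where quantile normalization gave 8.27% and 6.94% and put Lta past 2-fold as well. That comparison has medians of 0.08 for the cytokine genes and 0.09 for all genes. The comparisons with LPS share the same 4 LPS libraries, and both comparisons with etoposide alone share the etoposide libraries, so their values are given side by side only.

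**Figure D1:**
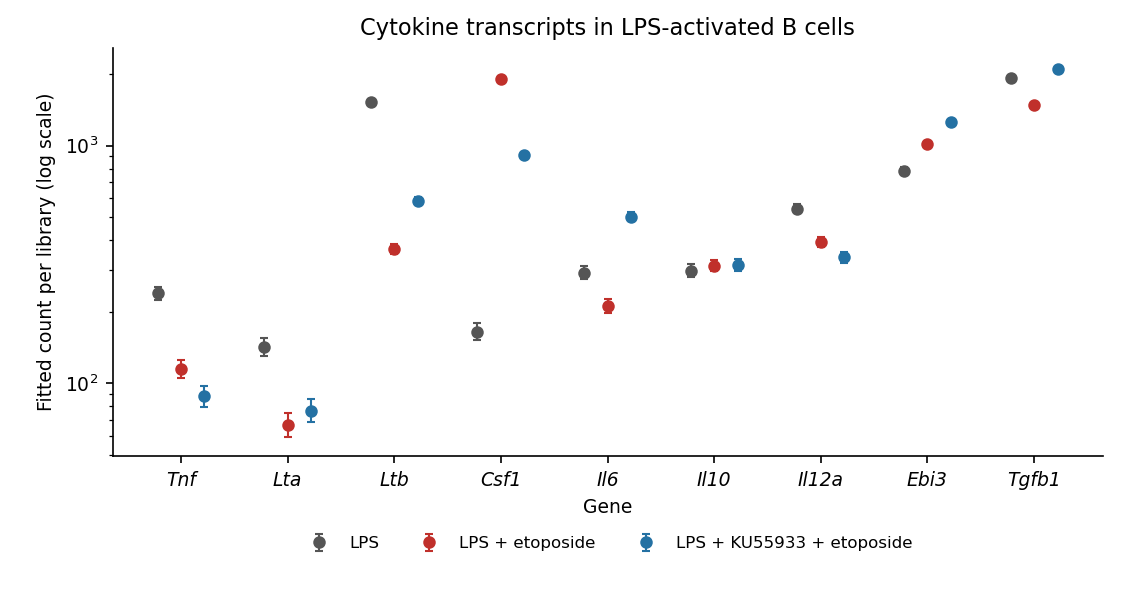
Level of the 9 cytokine genes in each condition, as the fitted count per library on a log axis, with grey points for LPS, red for LPS and etoposide and blue for LPS, KU55933 and etoposide. Bars are 95% counting intervals and not replicate spread. Csf1 is the gene with the widest separation (165, 1912 and 911), Ltb is highest with LPS (1521), and the 3 points of Il10 lie between 297 and 315.

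Ltb, Tnf and Lta encode the lymphotoxin and TNF ligands of the TNF superfamily. LTα forms a secreted homotrimer, or joins LTβ, which anchors it to the membrane as a ligand of the lymphotoxin β receptor, while TNF is a mediator of inflammation. The 3 genes lie side by side on chromosome 17 in the major histocompatibility complex, within 10.9 kb (GRCm38, positions 35194439 to 35205351). Ltb (ENSMUSG00000024399) occupies chr17:35194439-35196320 on the plus strand, Tnf (ENSMUSG00000024401) chr17:35199381-35202007 on the minus strand and Lta (ENSMUSG00000024402) chr17:35203165-35205351 on the minus strand. All 3 were lower than with LPS in both etoposide conditions.

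For Ltb, the table lists 1291, 1432, 1490 and 1342 in the 4 LPS libraries, 349, 392, 474 and 380 with etoposide, and 525, 592, 634 and 644 with KU55933 and etoposide. Within a condition these columns differ by the library factor only, so that their overlap or separation between conditions says nothing on replicates. After scaling, its level was 1521 (1482 to 1562) in LPS, 367 (349 to 386) in etoposide and 585 (562 to 609) in KU55933 with etoposide. Ltb was thus 4.14-fold lower upon etoposide treatment (log2 ratio −2.05, interval −2.13 to −1.97), a lower ratio than in all but 0.250% of genes. With KU55933 it was 1.59-fold above etoposide alone (0.67, 0.58 to 0.76) and remained 2.60-fold below LPS (−1.38, −1.45 to −1.31).

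Tnf was listed at 202, 224, 233 and 210 with LPS, at 109, 122, 148 and 118 with etoposide, and at 78.7, 88.8, 95.1 and 96.7 with KU55933 and etoposide. These columns, too, differ within a condition by the library factor only. The scaled level was 238 (223 to 255), 114 (105 to 125) and 87.8 (79.0 to 97.4), or 2.08-fold lower upon etoposide treatment (−1.05, −1.21 to −0.89). Unlike that of Ltb, the Tnf level was lower with KU55933 and etoposide than with etoposide alone, by 1.30-fold (−0.38, −0.57 to −0.18), and 2.72-fold lower than with LPS (−1.43, −1.61 to −1.25).

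Lta had the lowest levels of the 3 genes. It was listed at 120, 134, 139 and 125 with LPS, at 63.2, 70.9, 85.8 and 68.7 with etoposide, and at 68.6, 77.4, 82.9 and 84.3 with KU55933 and etoposide. Here as well, the columns of a condition differ by the library factor only. Scaled levels were 142 (130 to 155), 66.5 (59.0 to 74.6) and 76.6 (68.3 to 85.5). Lta was 2.13-fold lower upon etoposide treatment (−1.08, −1.29 to −0.88) and 1.85-fold lower with KU55933 and etoposide (−0.88, −1.08 to −0.68). Between the 2 etoposide conditions the log2 ratio was 0.20, with a counting interval from −0.03 to 0.43 that includes 0.

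**Figure D2:**
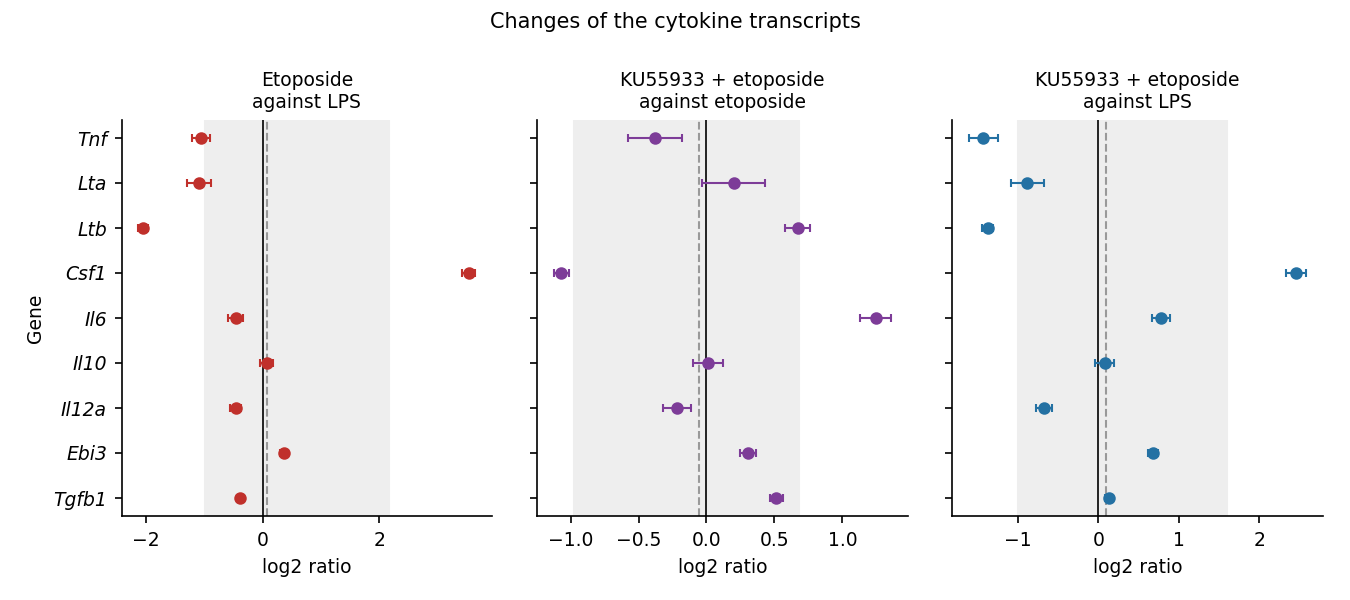
Log2 ratios of the 9 cytokine genes in the 3 comparisons, with 95% counting intervals and with horizontal axes that differ between panels. Grey bands span the 5th to the 95th percentile of all 15616 genes and dashed lines mark their median. Csf1 lies right of the band in both comparisons with LPS (3.53 and 2.46) and left of it with KU55933 (−1.07), Il6 right of it with KU55933 (1.24), and Ltb, Lta and Tnf left of it with etoposide.

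The neighbouring genes were looked at after the values of Ltb, Tnf and Lta were known. Of the genes within 100 kb on either side of the Tnf transcription start, 28 are in the table, and 17 of those other than the 3 cytokine genes passed the filter. Their log2 ratios of etoposide against LPS had a median of 0.11 and ranged from −1.43 to 1.95. Only Lst1, a leukocyte-specific transcript next to Ltb, was at least 2-fold lower among the 17 (29.5 in LPS, 10.3 in etoposide and 18.3 in KU55933 with etoposide), and only Apom, which encodes a lipid-binding plasma protein, was at least 2-fold higher (11.0, 45.3 and 42.3). Nfkbil1, the next gene past Lta, had 189, 187 and 304. The abundant Prrc2a, 45 kb away, had 14021, 12015 and 13300. The microRNA gene Mir6973a lies within Ltb and did not pass the filter (9.04, 2.62 and 4.24).

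**Figure D3:**
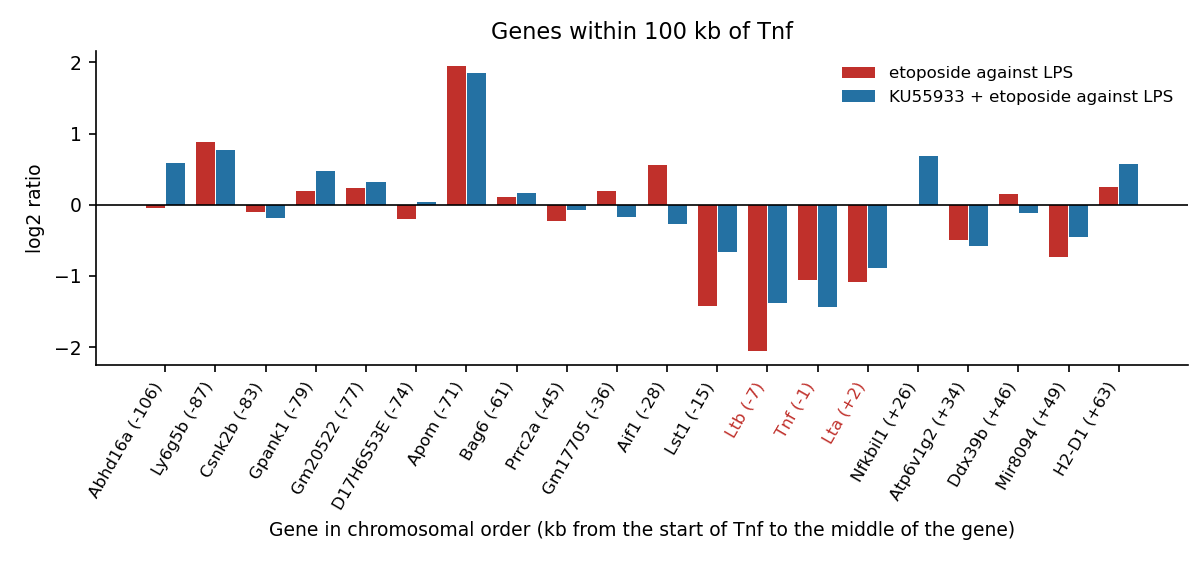
Log2 ratios against LPS of the genes within 100 kb of the Tnf transcription start that passed the filter, in chromosomal order, with the distance in kb from that start to the middle of each gene; red bars are etoposide and blue bars KU55933 with etoposide. Red names mark the 3 cytokine genes, which with Lst1 form the run of lower values in the middle.

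Each of these genes was also set beside the other 10874 genes with a mean of at least 100, by the distance between points whose coordinates are the log2 ratios of the 2 etoposide conditions against LPS. The 3 genes nearest to Ltb were Klf2, a Krüppel-like factor of lymphocyte trafficking (distance 0.081), Mob3b (0.145) and Pirb (0.213), an inhibitory receptor of myeloid and B cells. Those nearest to Tnf were Cdc25c, a phosphatase of the entry into mitosis (0.012), Lrrc25 (0.057) and Mbnl1 (0.064), a splicing regulator. Those nearest to Lta were Agfg2 (0.0066), Smim24 (0.012) and Tgtp1 (0.015). Nearness here is only a likeness of 2 ratios over 3 conditions.

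Csf1 encodes macrophage colony-stimulating factor, which maintains monocytes and macrophages through the receptor Csf1r. It lies at chr3:107741048-107760469 on the minus strand (GRCm38, ENSMUSG00000014599). The table lists 140, 155, 161 and 145 with LPS, 1819, 2039, 2469 and 1976 with etoposide, and 817, 921, 987 and 1003 with KU55933 and etoposide. Again the columns of a condition differ by the library factor only. Its level was 165 (152 to 178) in LPS, 1912 (1871 to 1954) in etoposide and 911 (882 to 941) in KU55933 with etoposide.

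This made Csf1 11.6-fold higher upon etoposide treatment (log2 ratio 3.53, 3.41 to 3.65), above 98.7% of genes. With KU55933 it was 2.10-fold lower than with etoposide alone (−1.07, −1.12 to −1.01) and still 5.53-fold above LPS (2.46, 2.34 to 2.58). Its receptor Csf1r, a macrophage marker, had levels of 4.03, 10.6 and 9.83, and of the macrophage markers Cd14 (4.99, 24.7 and 41.1) and Cd68 (101, 216 and 177) were also higher with etoposide while Itgam was lower (212, 132 and 116). The macrophage list summed to at most 484 in any condition, and its part in the result was not tested. The genes nearest to Csf1 in the 2 ratios against LPS were Casc1 (0.079), Dzip1 (0.112) and Plxna1 (0.113), the last a semaphorin co-receptor.

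**Figure D4:**
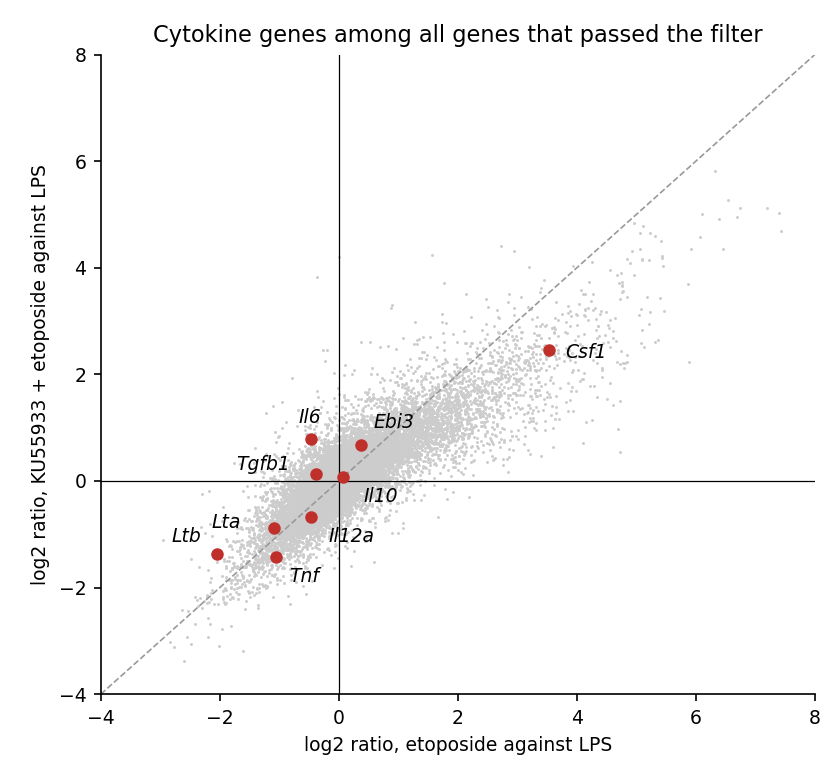
Log2 ratio of etoposide against LPS (horizontal axis) and of KU55933 with etoposide against LPS (vertical axis) for the genes that passed the filter (grey) and the 9 cytokine genes (red); the 2 axes share the LPS libraries, and the dashed line marks equal ratios. Csf1 lies below the line (3.53 and 2.46) and Il6 above it (−0.46 and 0.78), while Il10 lies next to the origin.

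Il6 encodes interleukin 6, which signals through Il6ra and Il6st and supports B cell and follicular helper T cell responses. The gene is at chr5:30013114-30019981 on the plus strand (GRCm38, ENSMUSG00000025746). Its libraries were listed at 247, 274, 285 and 257 with LPS, at 201, 225, 273 and 218 with etoposide, and at 450, 507, 543 and 552 with KU55933 and etoposide. As for the other genes, the columns of a condition are a fitted value times a library factor.

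After scaling, Il6 had a level of 292 (274 to 310) in LPS, 211 (198 to 225) in etoposide and 501 (480 to 524) in KU55933 with etoposide. It was 1.38-fold lower upon etoposide treatment (−0.46, −0.59 to −0.34), and 2.37-fold higher with KU55933 than with etoposide alone (1.24, 1.13 to 1.36), above 99.2% of genes in that comparison. Its level with KU55933 was thus also 1.72-fold above LPS (0.78, 0.67 to 0.89), so that the Il6 values with and without KU55933 lay on opposite sides of the LPS value. As no cells received KU55933 without etoposide, an effect of the inhibitor alone cannot be told apart from one on the response to etoposide.

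Il10, at chr1:131019845-131024974 on the plus strand (ENSMUSG00000016529), encodes interleukin 10, the cytokine by which regulatory B cells are usually defined. Its level was 297 (280 to 316) in LPS, 312 (296 to 329) in etoposide and 315 (298 to 332) in KU55933 with etoposide. The log2 ratios were 0.07 (−0.04 to 0.19) for etoposide against LPS, 0.01 (−0.10 to 0.12) for KU55933 and 0.08 (−0.04 to 0.20) for KU55933 with etoposide against LPS. Every one of these counting intervals includes 0, and their bound farthest from 0 is 0.20. The sign of the Il10 ratios depended on the scaling.

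Il12a and Ebi3 encode the p35 and EBI3 chains, which pair with each other in interleukin 35 and with the products of Il12b and Il27 in interleukin 12 and interleukin 27. Il12a is at chr3:68690644-68698547 (plus strand, ENSMUSG00000027776) and Ebi3 at chr17:55952640-55957022 (plus strand, ENSMUSG00000003206). Il12a had levels of 543 (519 to 567), 394 (376 to 413) and 339 (322 to 358) with LPS, etoposide, and KU55933 with etoposide. It was 1.38-fold lower than LPS with etoposide (−0.46, −0.55 to −0.37) and 1.60-fold lower with KU55933 and etoposide (−0.68, −0.78 to −0.58). Ebi3 went the other way, from 781 (752 to 810) to 1012 (982 to 1042) and 1250 (1216 to 1285), or 1.30-fold (0.37, 0.31 to 0.44) and 1.60-fold (0.68, 0.61 to 0.74) above LPS. The step from etoposide to KU55933 with etoposide was −0.22 (−0.32 to −0.11) for Il12a and 0.30 (0.25 to 0.36) for Ebi3. The partner chains Il12b (2.88, 4.26 and 4.91) and Il27 (2.10, 1.14 and 1.17) did not pass the filter, so that among these 4 genes the transcripts of Il12a and Ebi3 were the abundant ones in every condition.

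Tgfb1, at chr7:25687002-25705077 on the plus strand (ENSMUSG00000002603), encodes transforming growth factor β1, which restrains lymphocytes and directs the class switch to IgA. Its level was 1927 (1882 to 1973) in LPS, 1474 (1438 to 1510) in etoposide and 2105 (2061 to 2150) in KU55933 with etoposide. It was 1.31-fold lower upon etoposide treatment (−0.39, −0.44 to −0.34) and 1.43-fold higher with KU55933 than with etoposide alone (0.51, 0.47 to 0.56), above 91.3% of genes. The difference from LPS with KU55933 and etoposide was small (0.13, 0.08 to 0.17).

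Levels were divided by exonic length, the merged length of all annotated exons of a gene. This can exceed the length of the expressed transcript, so the order depends on annotation. With LPS alone, Ltb was first of the 9 genes, with 1004 fitted counts per kb. It was followed by Ebi3 (676), Tgfb1 (382), Il12a (319), Il10 (227), Tnf (145), Il6 (120), Lta (103) and Csf1 (31.2). No 2 neighbours in this order had overlapping counting intervals, which do not cover an error in length. Without length, Tgfb1 (1927, 5042 exonic bases) came before Ltb (1521, 1516 exonic bases) in LPS. With etoposide, Ebi3 was first (877 per kb) and Csf1 second (362), ahead of Tgfb1 (292), Ltb (242), Il10 (238) and Il12a (232). The intervals of Il10 overlapped those of Ltb and Il12a there, and Il6 (87.0), Tnf (69.8) and Lta (48.1) came last. With KU55933 and etoposide, Ebi3 (1083) was followed by Tgfb1 (417), Ltb (386), Il10 (240), Il6 (207) and Il12a (199), the last 2 of which overlapped, then by Csf1 (173), Lta (55.4) and Tnf (53.6), which overlapped too. Csf1 thus moved from the last place to the second and seventh, and Ltb from the first place to the fourth with etoposide and to the third with KU55933 and etoposide.

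Promoter sequences from RefSeq (GRCm38.p6, from 250 bases before the start site to 50 after it) were matched to 8 of the genes, with 9 windows as Il12a has 2. The consensus GGGRNWYYCC of the NF-kB site, called kB here, was searched on both strands because LPS acts through NF-kB. In it R is A or G, W is A or T, Y is C or T and N is any base. It was found in 4 of the 9 windows, those of Il6, Ltb, Ebi3 and Csf1, and in 4.51% of the 32851 promoter windows in the reference. The AP-1 motif TGANTCA, likewise searched on both strands, was found in the Il6 window only, and in 7.81% of all windows. The motifs were chosen with the values known. The 4 stretches are shown as those that hold the kB match. Each reads 5′ to 3′ on the strand of the gene, with the match in capitals.
Ltb promoter: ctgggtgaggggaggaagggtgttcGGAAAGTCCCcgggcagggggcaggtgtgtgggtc
Csf1 promoter: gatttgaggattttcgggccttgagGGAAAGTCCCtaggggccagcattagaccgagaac
Il6 promoter: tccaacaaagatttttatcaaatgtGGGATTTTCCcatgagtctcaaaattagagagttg
Ebi3 promoter: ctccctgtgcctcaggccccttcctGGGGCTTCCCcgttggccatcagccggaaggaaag

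These stretches lie at chr17:35194395-35194454 (plus strand) for Ltb, chr3:107760589-107760648 (minus strand) for Csf1, chr5:30013045-30013104 (plus strand) for Il6 and chr17:55952554-55952613 (plus strand) for Ebi3. The first base of the match lies 87 bases before the RefSeq start site in Ltb, 154 in Csf1 and 44 in both Il6 and Ebi3. For Ltb and Ebi3 the RefSeq start differs from the gene start given above. The Ltb match (35194420 to 35194429) lies just before that gene start (35194439), and the stretch shown runs past it. The capitals of Ltb and Csf1 are the same 10 letters, which match the consensus when read on the opposite strand. A match is a description of the sequence, and binding was not measured. A window without a match can hold a site that departs from this consensus, and sequence beyond the windows was not searched.

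For each gene, the longest 3′ untranslated region among its coding transcripts (GENCODE M21) was searched on the transcript strand. The search was for the pentamer ATTTA and for the nonamer TTATTTATT, which contains it and is the core of an AU-rich element. The nonamer was present in 3 of the 9 genes, with 5 copies in Tnf, overlaps counted, 1 in Lta and 1 in Il12a, and in 7.98% of the 12526 genes that passed the filter and have such a region. One stretch from each is shown, with the nonamer or its overlapping copies in capitals, as these are the 3 genes that hold it.
Tnf 3′ end: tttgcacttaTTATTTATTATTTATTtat
Lta 3′ end: aaaagttaagTTATTTATTtatagagaat
Il12a 3′ end: ctatttatatTTATTTATTttctatttat

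The stretches are at chr17:35199689-35199717 (minus strand), chr17:35203396-35203424 (minus strand) and chr3:68698436-68698464 (plus strand). Per kb of 3′ untranslated region, ATTTA occurred 12.1 times in Il12a, 10.5 in Tnf, 8.50 in Il10, 7.41 in Tgfb1, 6.00 in Il6, 5.24 in Lta, 4.08 in Ebi3 and 1.89 in Csf1, where the median over the 12526 genes was 1.26. It was not found in the 174 bases of Ltb. The values of Tgfb1 and Ebi3 rest on 1 copy each, in 135 and 245 bases, and that of Il6 on 10 copies in 1668 bases. The longest annotated region need not be the one expressed.

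Among the 13 receptor genes of these cytokines, 11 passed the filter. In etoposide against LPS 2 were at least 2-fold higher, against 15.3% of all genes, and 2 lower, against 4.87%. Of the 2 higher genes, Csf1r was below 10 with LPS and passed the filter only through the etoposide condition in which it was higher. Tnfrsf1b, which encodes TNF receptor 2, had levels of 1286, 2917 and 2442 in the order LPS, etoposide, KU55933 with etoposide (log2 ratio with etoposide 1.18), and Csf1r is given above (1.20). The interleukin 27 receptor chain Il27ra (528, 224 and 345, log2 ratio −1.24) and the interleukin 12 receptor chain Il12rb1 (270, 125 and 180, −1.11) were lower with etoposide. None of the 11 was past 2-fold between KU55933 with etoposide and etoposide alone, where 1.69% of all genes were higher and 4.73% lower. The TNF receptor Tnfrsf1a and the lymphotoxin β receptor Ltbr stayed below 10 everywhere.

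Of 9 genes for the release and activation of cytokines, 8 passed, and 2 were at least 2-fold higher with etoposide (15.3% of all genes) and none lower (4.87% of all genes). Their median log2 ratio was 0.61, beside 0.07 for all genes. Thbs1, an activator of latent TGF-β, had 23.8, 60.9 and 107 (log2 ratio with etoposide 1.32). Rhbdf2, which carries the TNF-shedding protease ADAM17 to the cell surface, had 833, 1782 and 1592 (1.10). Adam17 itself had 3157, 3403 and 3053 (0.11), and Lrrc32, which holds latent TGF-β at the cell surface, had 958, 624 and 778 (−0.62).

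All 21 transcription factor genes of cytokine transcription passed the filter, 4 of them at least 2-fold higher with etoposide (15.3% of all genes) and 3 lower (4.87% of all genes), with a median log2 ratio of 0.18 beside 0.07 for all genes. KU55933 with etoposide left 2 higher (1.69% of all genes) and 1 lower (4.73% of all genes) than etoposide alone, with a median of 0.28 beside −0.05. Fos, a component of AP-1, had a level of 54.9 in LPS, 853 in etoposide and 910 in KU55933 with etoposide (log2 ratio with etoposide 3.93). Egr1, an immediate early gene, had 228, 864 and 198, a ratio of 1.92 with etoposide and of −2.12 for KU55933 with etoposide against etoposide alone. Irf8, a factor of B cell and myeloid development, was lower in both etoposide conditions (13143, 3529 and 3774, −1.90), and Cebpd had 63.5, 29.6 and 61.4 (−1.08). Of the NF-kB subunits, named here after their values were seen, Nfkb1 was lower with etoposide (12266, 5912 and 6194, −1.05). Above LPS lay Nfkb2 with 6183, 9085 and 9900 (0.56), Rel with 3318, 4620 and 5692 (0.48) and Rela with 2194, 2733 and 2841 (0.32). Relb had 1706, 1768 and 2479 and was close to LPS with etoposide (0.05, beside the median of 0.07 for all genes).

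All 12 genes for the decay and binding of cytokine mRNA passed, with 1 at least 2-fold higher (15.3% of all genes) and 1 lower (4.87% of all genes) upon etoposide treatment. With KU55933 against etoposide none was past 2-fold, where 1.69% of all genes were higher and 4.73% lower. The median log2 ratio with etoposide was −0.06, beside 0.07 for all genes. Roquin-2, encoded by Rc3h2, represses cytokine mRNAs through stem-loops and had a level of 1868 in LPS, 6200 in etoposide and 4414 in KU55933 with etoposide (log2 ratio with etoposide 1.73), and its paralog Rc3h1 had 3361, 6066 and 4353 (0.85). Hnrnpd, which encodes the AU-rich element binding protein AUF1, was lower in both etoposide conditions (7379, 3001 and 2792, −1.30). Arid5a, whose product stabilises Il6 mRNA, had 4535, 3602 and 6316 (−0.33 with etoposide and 0.81 for KU55933).

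Of 12 genes that respond to cytokines, all passed, and 5 were at least 2-fold higher with etoposide (15.3% of all genes) and none lower (4.87% of all genes), with a median log2 ratio of 0.52 beside 0.07 for all genes. With KU55933 and etoposide 7 were at least 2-fold above LPS (12.3% of all genes), with a median of 1.07 beside 0.09. Ski, a repressor of TGF-β signalling, had a level of 331 in LPS, 1328 in etoposide and 888 in KU55933 with etoposide (log2 ratio with etoposide 2.00). Socs1, an inhibitor of JAK kinases, had 60.1, 234 and 256 (1.94). Bcl3 (1963, 1454 and 1702, −0.43) and Nfkbie (2832, 2279 and 3684, −0.31), both of the inhibitor of NF-kB family, were the lowest of the list with etoposide. Socs3, a feedback inhibitor of interleukin 6 signalling, was singled out after its values were seen and had 892, 922 and 1888. With KU55933 against etoposide alone it was the 1 gene of the 12 at least 2-fold higher (1.03), against 1.69% of all genes. None was lower by as much, against 4.73% of all genes, and a link to Il6 was not tested.

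**Figure D5:**
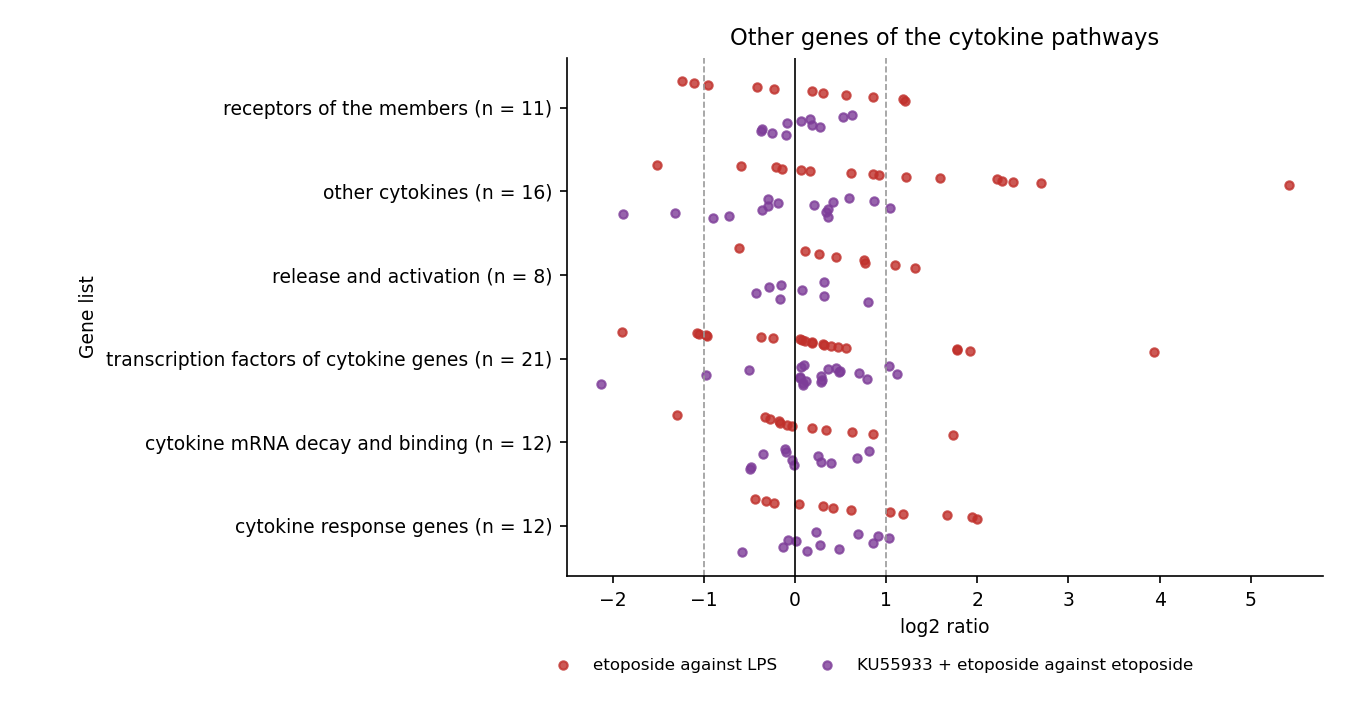
Log2 ratios of the genes of 6 pathway lists that passed the filter, each point a gene, in red for etoposide against LPS and in purple for KU55933 with etoposide against etoposide alone; dashed lines mark 2-fold. The number beside each list is that of its genes plotted, and Lif at 5.41 is the point farthest to the right.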

How the data were processed

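Polyadenylated RNA was sequenced in 12 libraries, 4 per condition. The labels give the 4 libraries of a condition as replicates, and the methods of the study as biological replicates. The authors trimmed reads with Trim Galore and cutadapt 1.2.1, mapped them with TopHat2 2.0.12, counted them with HTSeq on Ensembl 78 genes (GRCm38) and fitted DESeq2 1.6.3. Values in the deposited table of normalized counts are a signal, namely the DESeq2 fitted mean of a condition times a library factor. Fits of that version moderate fold changes toward 0 by default, so ratios of low genes may be understated. Deposited tables of the authors' own comparisons (mean, log2 fold change, standard error, Wald statistic, p and adjusted p) were not used.

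Columns were divided by median-of-ratios factors set on genes with a mean of at least 100 (0.848 to 0.979 in LPS, 0.951 to 1.29 in etoposide, 0.897 to 1.10 in KU55933 with etoposide). The filter kept 15616 of 29486 genes, those whose value reached 10 in 4 or more libraries, and the pseudocount was 1. Counting intervals (95%) treat the sum of the 4 columns of a condition as reads, from 289 for Lta with etoposide to 8614 for Tgfb1 with KU55933 and etoposide. The test with limma that was planned was not possible, as fitted means lack replicate values. The 9 genes, the gene lists and the motifs were chosen with earlier results of these data known. From each list the 2 genes with the highest and the 2 with the lowest ratio of etoposide against LPS are named, cell type marker lists are described, and the 3 nearest genes are given for each cytokine gene past 2-fold against LPS. Gene symbols on more than 1 row (17) were kept apart by identifier. Annotation was GENCODE M21 and promoters were RefSeq. Il10 had no promoter entry. Computation used matplotlib 3.10.9, pandas 2.3.3, scipy 1.17.1 and numpy 2.4.6 under Python 3.11.15, and the functions were tested on simulated data. Alternatives were library totals, TMM and quantile scaling, pseudocounts of 0.5 and 5, no filter, a minimum of 50, a limit of 1.5-fold, levels without length and leaving out each library. Results for some marker genes are not reported here.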

Additional observations from a re-analysis of the deposited data

How the results depend on the processing

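No paired analysis was possible because the columns hold fitted means, in which libraries with the same number do not deviate together or apart. For the same reason leaving out each of the 12 libraries in turn moved the 27 log2 ratios by at most 0.0051 and says nothing on replicate spread. Of the 27 ratios, 24 kept their sign under 3 other scalings and 2 other pseudocounts, and the exceptions were the 3 of Il10. The scalings moved the median of all genes for etoposide against LPS from 0.07 to −0.10 (quantile), and for KU55933 with etoposide against LPS from 0.09 to 0.20 (totals) and −0.02 (quantile). Moves beyond the counting interval were as follows. For etoposide against LPS, TMM gave Ltb −2.14, Ebi3 0.28 and Tgfb1 −0.48, and quantile normalization gave Il6 −0.65, Il10 −0.086, Tnf −1.33, Lta −1.47, Il12a −0.57, Ebi3 0.29 and Csf1 3.37. For KU55933 with etoposide against etoposide, totals gave Tgfb1 0.57 and Csf1 −1.01, and quantile normalization Tgfb1 0.59. For KU55933 with etoposide against LPS, totals gave Ltb −1.27, Il12a −0.57, Ebi3 0.78 and Tgfb1 0.23, TMM gave Ltb −1.47, Ebi3 0.58 and Tgfb1 0.033, and quantile normalization gave Il6 0.65, Il10 −0.090, Tnf −1.62, Lta −1.11, Il12a −0.79, Tgfb1 0.22 and Csf1 2.29. A limit of 1.5-fold put 7 genes past it in that comparison in place of 3. Of these, 3 were higher, against 22.7% of all genes, and 4 lower, against 13.3% of all genes. Without length, 2 of the 9 genes kept their place in the order in LPS, 3 in etoposide and 2 in KU55933 with etoposide, since genes with more exonic bases then rank higher. The depth limits Lta most.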

Other observations

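Of 32 other cytokine genes, 16 passed the filter, and the rest stayed below 10 in every condition. Upon etoposide treatment 7 were at least 2-fold higher (15.3% of all genes) and 1 lower (4.87% of all genes). Of these 7, Il1a, Il23a, Lif, Tgfb2 and Tnfsf13b were below 10 with LPS and passed the filter only through conditions with etoposide, in which they were higher, so that the count is no result about the list. Lif, a cytokine of the interleukin 6 family, had a level of 9.38 in LPS, 442 in etoposide and 236 in KU55933 with etoposide (log2 ratio with etoposide 5.41), where the value with LPS is too low to fix the size of the ratio. Il1b, which encodes interleukin 1β, had 21.7, 146 and 188 (2.70). Il16, a T cell attractant that is abundant in lymphocytes, was the only one at least 2-fold lower with etoposide (3177, 1116 and 1678, −1.51), and Il18 had 28.7, 18.7 and 15.1 (−0.59).

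With KU55933 against etoposide alone, 1 of the 16 was at least 2-fold higher (1.69% of all genes) and 2 were lower (4.73% of all genes), all named after their values were seen. Tnfsf8, which encodes CD30 ligand, had 51.0 in LPS, 92.9 in etoposide and 192 in KU55933 with etoposide. Il15, which encodes a growth factor of NK and memory T cells, had 16.5, 83.7 and 21.9. Tgfb2 had 7.99, 40.8 and 15.7, beside 1927, 1474 and 2105 for Tgfb1. Of the 12 genes of the list that lay above LPS with etoposide, 7 were lower and 5 higher with KU55933 than with etoposide alone. These 12 were picked by their value with etoposide, which also enters the second comparison. The split is therefore no result about the list.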
